A study of Rattus norvegicus with 46 samples.

Results

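The subunits of oxidative phosphorylation were examined in rat skin as 75 genes, chosen by their symbols in the array annotation: the NADH dehydrogenase (Nduf), cytochrome bc1 (Uqcr), cytochrome c oxidase (Cox4 to Cox8) and ATP synthase (Atp5) genes, with Sdha, Sdhb, Sdhc, Sdhd, Cyc1 and Cycs. The 75 genes have 1 feature each among the 23188 features tested, and all 75 were found by gene identifier in the RefSeq gene table under the same symbol. They divide into 31 genes of complex I, 4 of complex II, 9 of complex III, 16 of complex IV, 14 of complex V and Cycs, which encodes cytochrome c. Abdominal skin of 9 Sprague-Dawley rats, biopsied repeatedly with a 5 mm punch, was measured on 46 Clariom S arrays, 1 per biopsy. Untreated baseline skin of day -10 gave 6 arrays. The other biopsies are of days -4, 1, 3, 7 and 14 in 3 arms, with 3 arrays per day in irradiated RTA-408 skin, 3 in irradiated vehicle skin and 2 in unirradiated (sham) vehicle skin. Vehicle was DMSO, and injections of vehicle or RTA-408, a small-molecule activator of the antioxidant transcription factor NRF2, were on days -7, -5, -3 and 0. Irradiated skin received 40 Gy of 6 MeV electrons as 4 fractions of 10 Gy over 8 days, so the biopsies of day -4 fall within the course of treatment. The labels give no age or sex. Per the protocol the beam was meant to reach dermis, soft tissue and muscle, and the dose dropped steeply beneath them.

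Oxidative phosphorylation passes electrons from NADH (complex I) and succinate (complex II) through complex III and cytochrome c to oxygen at complex IV, and the proton gradient made on the way drives ATP synthesis by complex V. Most subunits are made from nuclear genes in every cell with mitochondria, while complex IV has isoforms found mainly in heart and skeletal muscle. Skeletal muscle is rich in these complexes, and a thin muscle layer, the panniculus carnosus, underlies rodent skin, so that a punch biopsy can hold more or less of it. Acta1, skeletal muscle actin, is used below as the measure of muscle in a biopsy. All values are the deposited log2 signals, and every difference is a log2 difference on the deposited scale, which is wider than that of a plain scanner signal. A change of signal in whole skin can come from fewer cells of a type or from less RNA per cell, and these cannot be told apart. "Rose" and "fell" are used only for an adjusted p under 0.05 in the limma fit to all 46 arrays, adjusted by Benjamini-Hochberg over all features tested.

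Muscle content differed widely between biopsies. Acta1 was within 1 of the highest signal of the array in 37 of 46 arrays, close to the ceiling, and was more than 4 below the median array in 3: baseline replicate 2 (7.87), irradiated RTA-408 replicate 1 of day -4 (9.85) and unirradiated replicate 1 of day 1 (12.15). The mean of 13 measured muscle markers ran from 6.41 to 18.61 across arrays. Its differences, given beside those of Acta1, were not tested. The 5 measured keratinocyte markers averaged 13.77 to 16.64 and the 6 fibroblast markers 15.18 to 17.76 over the 46 arrays, the markers of the labelled tissue. The macrophage markers reached 15.99 in irradiated vehicle replicate 3 of day 14, against a median array of 10.43, and the adipocyte markers were lowest in the same array (8.37). By their spike-in controls the arrays fell into 3 sets, called I (18 arrays), II (10) and III (18). Set I held all baseline arrays and the unirradiated arrays of days -4 and 1, and set III the later unirradiated arrays. On every day, 1 array of each irradiated arm was in set II and the others in set I up to day 1 and in set III after it. Set and day are thus partly confounded in the irradiated arms. In unirradiated skin the later days differ from baseline and day 1 wholly in set as well. Of the 75 genes, 70 lay above the median negative control on all 46 arrays. Cox4i2, the lung isoform of the complex IV subunit 4, lay at or below it on all 46, and Cox8b was above it on 26.

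Of the isoform pairs of complex IV, the muscle isoforms were low in the arrays with the least Acta1, and Cox8b in other arrays as well. Cox6a2 and Cox8b are the heart and skeletal muscle isoforms of subunits 6a and 8, and Cox6a1 and Cox8a are the isoforms of other tissues. Cox6a2 was 4.50 in baseline replicate 2 and 13.88 to 16.17 in the other 5 baseline arrays. It was 4.11 in irradiated RTA-408 replicate 1 of day -4 and 4.89 in unirradiated replicate 1 of day 1, so that its lowest values are in the 3 arrays with the least Acta1. Cox6a1 was 13.18, 13.48 and 13.02 in those 3 arrays, within its range of 12.46 to 13.88 over all arrays. Cox8b was 4.21, 3.73 and 4.40 there, all below the negative controls, and reached 8.47 in baseline replicate 4. It also lay at or below the negative controls in all 3 RTA-408 arrays of day 7, where Acta1 was 18.88 to 19.82. Cox8a was 13.97, 13.71 and 13.87 in the 3 arrays with the least Acta1 and 13.00 to 14.28 over all. To show what the promoters of such a pair hold, windows of 300 bases around the start, of which 50 lie after it, are printed for Cox6a2 and Cox8b, for Cox8a, and for Cycs, a classic target of the nuclear respiratory factor NRF1. Capitals mark an E-box (CANNTG) or a MEF2 site in the first 2 and an NRF1 core (GCGCATGC) or ETS core (CCGGAAG) in the last 2, on either strand. Sequences are those of RefSeq on GRCr8 and run 5' to 3' on the minus strand, at chr1:192219667-192219966 for Cox6a2, chr1:205408224-205408523 for Cox8b, chr1:213833574-213833873 for Cox8a and chr4:80984718-80985017 for Cycs.
Cox6a2: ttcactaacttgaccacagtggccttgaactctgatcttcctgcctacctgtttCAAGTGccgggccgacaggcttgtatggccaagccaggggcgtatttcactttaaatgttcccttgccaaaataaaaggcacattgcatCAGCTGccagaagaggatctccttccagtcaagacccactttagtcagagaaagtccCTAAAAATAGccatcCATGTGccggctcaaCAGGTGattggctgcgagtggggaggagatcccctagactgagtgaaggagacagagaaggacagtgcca
Cox8b: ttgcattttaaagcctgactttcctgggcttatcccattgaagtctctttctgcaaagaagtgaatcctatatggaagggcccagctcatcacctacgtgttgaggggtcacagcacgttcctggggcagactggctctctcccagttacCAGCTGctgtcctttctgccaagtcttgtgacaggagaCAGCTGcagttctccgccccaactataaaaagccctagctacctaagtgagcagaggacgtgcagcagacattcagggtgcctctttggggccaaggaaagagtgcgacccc
Cox8a: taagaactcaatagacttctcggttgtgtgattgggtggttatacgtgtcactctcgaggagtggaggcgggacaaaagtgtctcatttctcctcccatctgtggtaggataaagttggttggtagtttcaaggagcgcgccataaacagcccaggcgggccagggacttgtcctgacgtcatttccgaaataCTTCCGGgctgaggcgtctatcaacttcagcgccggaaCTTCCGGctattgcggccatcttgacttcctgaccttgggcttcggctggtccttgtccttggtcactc
Cycs: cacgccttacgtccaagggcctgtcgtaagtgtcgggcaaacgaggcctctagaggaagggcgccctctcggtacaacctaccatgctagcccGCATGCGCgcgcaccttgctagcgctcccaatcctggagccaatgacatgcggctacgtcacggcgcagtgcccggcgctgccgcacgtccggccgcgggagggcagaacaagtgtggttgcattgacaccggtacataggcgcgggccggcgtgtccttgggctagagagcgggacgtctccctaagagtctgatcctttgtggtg

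E-boxes and MEF2 sites are the motifs bound by the MyoD family and by MEF2 factors in muscle, while NRF1, ETS factors such as GABP, YY1 and the estrogen-related receptors are known regulators of respiratory genes. The Cox6a2 window held 4 E-boxes and 1 MEF2 site, and the Cox8b window 2 E-boxes, both of the form CAGCTG, with 0 MEF2 sites. The Cox8a window held 2 ETS cores and the Cycs window 1 NRF1 core, and each of them also held 1 E-box, which is not in capitals. A window was found for 66 of the 75 genes. On both strands, the NRF1 core was in 13.6% of these 66 windows and in 2.47% of all 33469 promoter windows, and the ETS core in 30.3% and 8.75%. YY1 (AAGATGG) was in 22.7% and 7.01%, the estrogen-related receptor core (AAGGTCA) in 13.6% and 4.61%, and the GC box (GGGCGG) in 42.4% and 33.1%. The E-box was in 60.6% and 72.1%, its form CAGCTG, which is counted within it, in 16.7% and 15.1%, and MEF2 in 1.52%, which is Cox6a2 alone, and 3.29%. These shares describe letters in the windows, sites of different motifs can overlap, and binding was not measured.

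**Figure D1:**
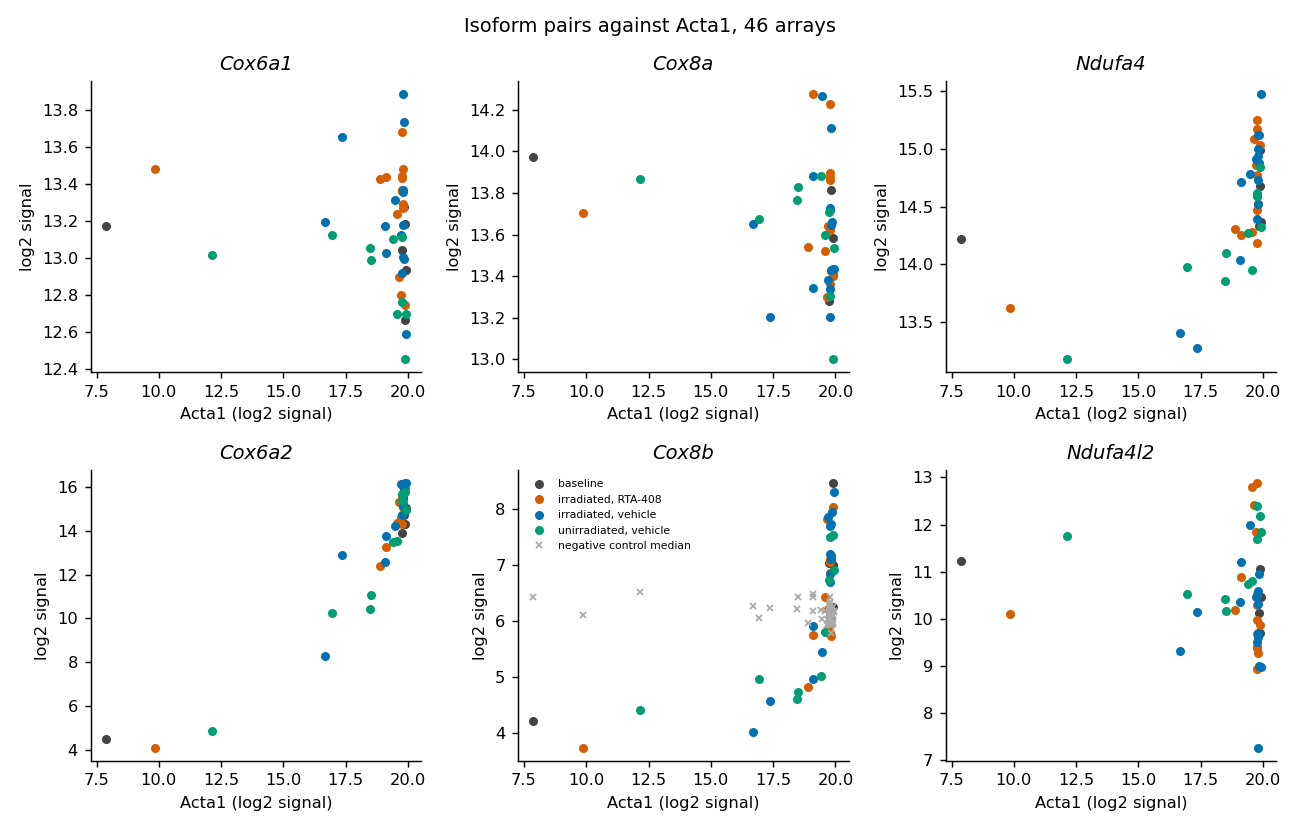
Log2 signal of 6 subunit genes (vertical axes) against the log2 signal of Acta1 (horizontal axes) on 46 arrays, each point 1 array coloured by arm, with the negative control median of each array as crosses beside Cox8b. Cox6a2 falls to between 4.11 and 4.89 in the 3 arrays with least Acta1, where Cox6a1 stays at 13.02 to 13.48.

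Among biopsies of the same arm and day, 22 of the 75 subunits rose with Acta1 and 0 fell, in a fit of the slope on Acta1 with 1 mean per group. Over all 23187 features tested, 2.46% had a called positive slope and 0.16% a called negative slope. The median slope was 0.06 log2 units per log2 unit of Acta1 for the subunits and -0.01 for all features, and 68 of the 75 slopes were above 0. Cox6a2 had the highest slope, 0.99 ± 0.05 (SE, limma adjusted p = 3.29e-16), beside a median of 1.03 for the muscle markers. In the 3 low-Acta1 arrays Cox6a2 was below the negative controls, and without them its slope was 1.66 and still passed. Cox8b had a called positive slope too, which was lost under 2 of 11 other settings. It lay at or below the negative controls on 20 arrays, the 3 low-Acta1 arrays among them, so no size is given for it. Next were Sdhc, a membrane anchor of succinate dehydrogenase (0.16 ± 0.03), and Ndufs7, an iron-sulphur subunit of complex I (0.12 ± 0.03, limma adjusted p = 0.0385), whose call was lost without each of 10 of the 46 arrays in turn. The 4 lowest slopes did not pass: Ndufa4l2, a paralogue of Ndufa4 known as a hypoxia-induced gene (-0.04 ± 0.06), Cox4i2, which was below the negative controls on every array and has no measured slope, Cox6a1 (-0.02 ± 0.02) and Cox8a (-0.02 ± 0.02).

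Slopes passed in every complex. They were 8 of 31 in complex I, 3 of 4 in complex II, 4 of 9 in complex III, 3 of 16 in complex IV and 4 of 14 in complex V, while Cycs did not pass (0.07 ± 0.02). In complex II, Sdha, the flavoprotein that oxidises succinate, had a slope of 0.12 ± 0.02, Sdhb, the iron-sulphur subunit, 0.08 ± 0.02, and the anchor Sdhd, which did not pass, 0.10 ± 0.03. Of the other mitochondrial lists, 5 of 11 genes of the tricarboxylic acid cycle and 5 of 12 carriers and porins had a called positive slope, against 0 of 11 complex I assembly factors, 1 of 25 assembly factors of complexes II to V, 0 of 22 mitochondrial ribosomal proteins, 1 of 14 genes of fatty acid oxidation and 0 of 15 regulators of biogenesis. Without baseline replicate 2 the count of subunits was 5, without irradiated RTA-408 replicate 2 of day -4 it was 14, and without all 3 low-Acta1 arrays it was 19 with a median slope of 0.23. Without those 3 arrays the slopes of Sdhc (0.52) and Sdha (0.42) were steeper, and Ndufs7 no longer passed (limma adjusted p = 0.117). Since Acta1 was near its ceiling, the slope was also taken on the mean of the other muscle markers: 45 of 75 were then positive and 0 negative, against 3.41% and 0.453% of all features.

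**Figure D2:**
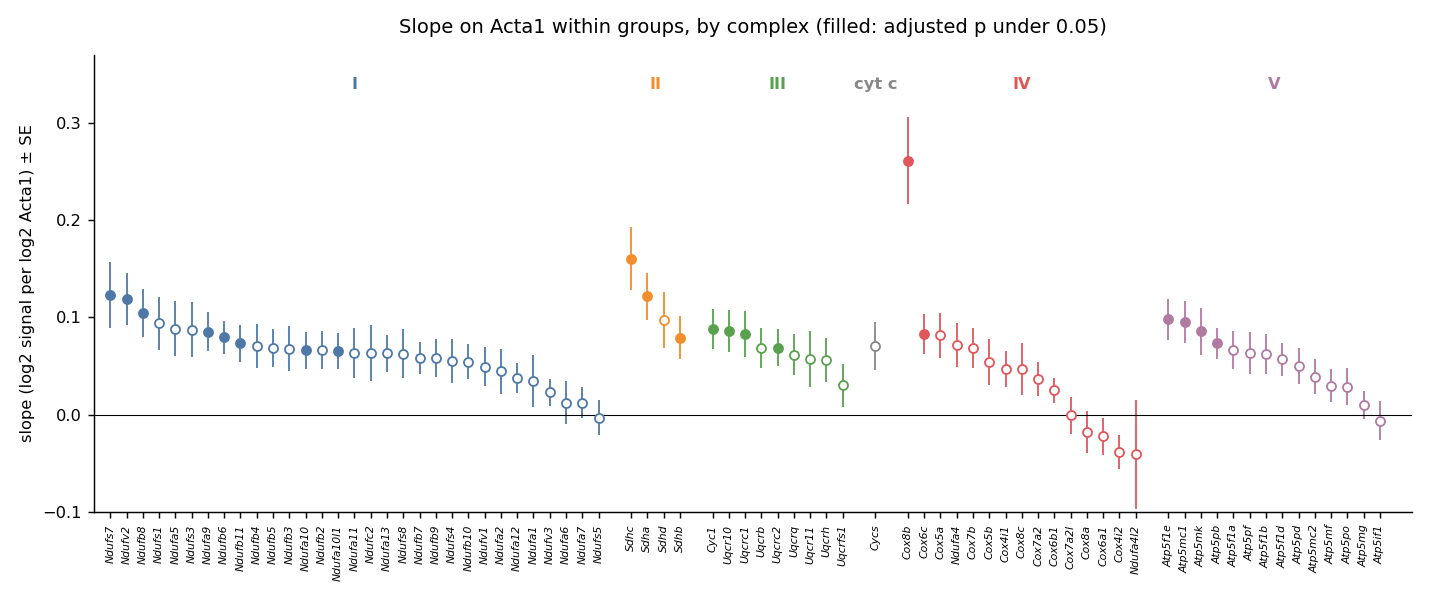
Slope of each subunit on Acta1 (vertical axis, log2 units per log2 unit of Acta1, with SE) within groups, by complex along the horizontal axis, filled where the adjusted p is under 0.05. Cox6a2, at 0.99, is left out for scale, and 21 of the 74 others are filled, all above 0. Cox8b and Cox4i2 are drawn from signals at or below the negative controls on 20 and 46 arrays.

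Against baseline, the subunits as a group were lower in every arm on day -4. The median difference over the 75 was -0.36 in irradiated RTA-408 skin, -0.47 in irradiated vehicle skin and -0.39 in unirradiated vehicle skin, where the medians over all features were 0.01, 0.06 and 0.03. All comparisons with baseline share the 6 baseline arrays. In irradiated vehicle skin 15 subunits fell, against 4.26% of all features, and 0 rose, against 6.46%. In irradiated RTA-408 skin 4 fell (1.57% of all features) and 0 rose (4.22%), and in unirradiated skin 0 passed (0.0173% in either direction), with 16 at an unadjusted p under 0.05. Acta1 differed from baseline by -1.61, 0.66 and 0.62 in the same order and did not pass, and the muscle marker mean by -2.41, -0.66 and -0.93. Baseline replicate 2 (Acta1 7.87, muscle marker mean 6.41) lowers both baseline means, from which these and the later differences are taken. The baseline mean of Acta1 was 17.86 and its median 19.86. Acta1 was 16.68 to 19.78 in the vehicle arm and 18.46 and 18.50 in the unirradiated arm, below that median despite the positive differences. With Acta1 or the mean of the muscle markers as a covariate, 27 or 25 subunits fell in irradiated vehicle skin. Markers of other cells moved as well. The keratinocyte mean was 14.50 to 15.75 at baseline and on day -4 was 15.95 to 16.23 in irradiated vehicle skin, with no overlap, 15.51 to 16.27 with RTA-408 and 15.15 to 15.46 in unirradiated skin. The macrophage mean was 8.75 to 10.07 at baseline and 9.59 to 10.42, 10.56 to 11.57 and 8.18 to 8.81 in the same order, and the slow fibre mean 7.82 to 9.72 at baseline and 7.82 to 7.96, 7.42 to 7.77 and 7.66 to 8.25. In irradiated vehicle skin 3 of 5 keratinocyte markers rose and 2 of 7 slow fibre markers fell, and the part of these cells in the result was not tested.

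Ndufv1, the flavoprotein subunit of complex I that accepts electrons from NADH, had the largest fall on day -4 among the 15 called subunits of irradiated vehicle skin. Its baseline arrays ran from 11.79 over a median of 12.09 to 12.23. On day -4 it was 10.55, 10.71 and 11.21 in irradiated vehicle skin, 10.92, 11.49 and 10.70 in irradiated RTA-408 skin and 11.71 and 11.59 in unirradiated skin. All 8 values lay below all 6 baseline values. The differences were -1.24 ± 0.23 (SE, limma adjusted p = 0.000487), -1.03 ± 0.23 (adjusted p = 0.00552) and -0.41, the last not passing. With vehicle Ndufv1 passed without each of 9 arrays in turn and under all 12 other settings (highest adjusted p 0.0129 and 0.0294). Ndufb9, an accessory subunit of complex I (-1.10 ± 0.23, adjusted p = 0.00141), and Atp5f1d, the delta subunit of the ATP synthase rotor stalk (-0.97 ± 0.20, adjusted p = 0.00184), did so too.

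Other subunits that fell in irradiated vehicle skin on day -4 were Ndufs1, the largest iron-sulphur subunit of complex I (-1.14 ± 0.33, limma adjusted p = 0.0229), and Cyc1, cytochrome c1 of complex III (-1.12 ± 0.26, adjusted p = 0.00475). Complex I gave 9 of the 15, complex V 3, and complexes II, III and IV 1 each, the smallest falls being Atp5mg (-0.61), Ndufb10 (-0.63), Ndufb7 (-0.74) and Ndufb6 (-0.77). In irradiated RTA-408 skin the 4 were Ndufv1, Ndufa9 (-0.99), Ndufb9 (-0.97) and Cyc1 (-0.91). The lowest unadjusted p in unirradiated skin belonged to Sdha (-1.07 ± 0.39, adjusted p = 0.428) and Sdhb (-0.85 ± 0.31, adjusted p = 0.428), which did not pass. Beside them, 4 of 11 genes of the tricarboxylic acid cycle fell in irradiated vehicle skin, led by Idh3a (-1.21) and Dlst (-1.13), as did the coactivator of mitochondrial biogenesis Ppargc1a (-1.40). With the rat as a block, which uses the rats biopsied both at baseline and later (6 of 9), 6 fell in irradiated vehicle skin and 0 in irradiated RTA-408 skin. Without baseline replicate 2 these counts were 27 and 9, without irradiated vehicle replicates 1 and 2 in turn 5 and 6, and without irradiated RTA-408 replicates 1 and 3 in turn 2 and 0. Within spike-in set I they were 3 and 0.

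**Figure D3:**
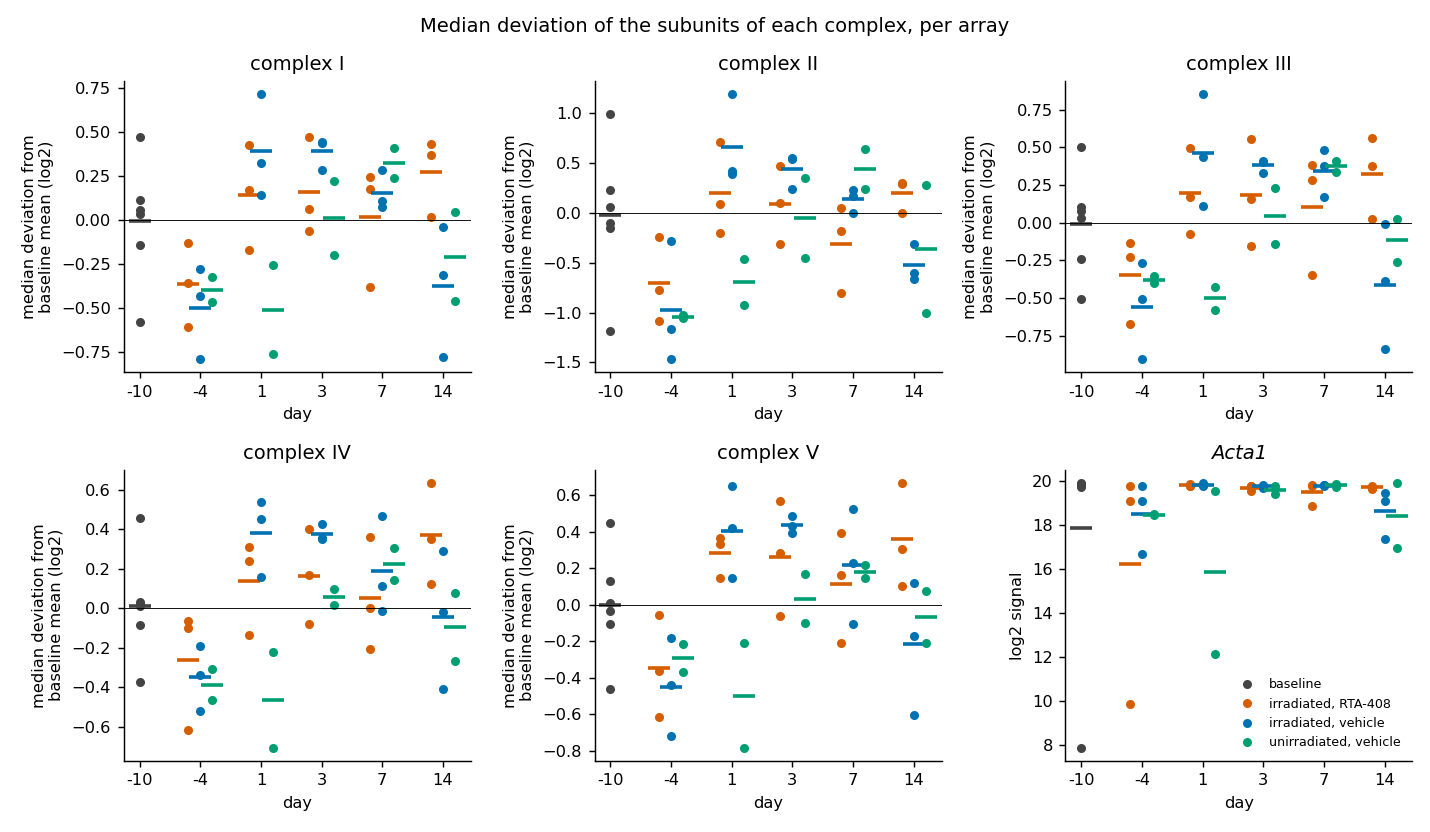
Median deviation of the subunits of complexes I to V from their baseline means (vertical axes, log2) and the log2 signal of Acta1 (last panel), by day (horizontal axis), each point 1 array, bars group means. Every array of day -4 lies below 0 for complex I, and irradiated vehicle arrays of days 1 and 3 lie above 0.

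From day 1 on few subunits differed from baseline. On day 1 the median difference was 0.20 in irradiated RTA-408 skin, 0.45 in irradiated vehicle skin and -0.56 in unirradiated skin. Acta1 differed by 1.96, 1.99 and -2.00 in the same order, which did not pass, and the muscle marker mean by 2.00, 2.41 and -3.15. In irradiated skin Acta1 was 19.77 to 19.92, and it was 19.76 to 19.92 in the baseline arrays other than the low replicate 2. With vehicle 3 rose (5.08% of all features) and 0 fell (4.65%): Atp5mc1, a c-ring subunit (0.92 ± 0.28, limma adjusted p = 0.0327), Atp5po, the stator subunit OSCP (0.78 ± 0.20, adjusted p = 0.0101), and Ndufa7 (0.60 ± 0.17, adjusted p = 0.0177). With RTA-408 0 rose (6.17%) and 1 fell (4.79%), Cox8c, known in human as a testis isoform of subunit 8. In unirradiated skin 0 rose (0.272%) and 2 fell (0.0431%), Ndufb9 (-1.17 ± 0.26, adjusted p = 0.0388) and Atp5mg (-0.85 ± 0.17, adjusted p = 0.0213), a result that rests on 2 arrays, 1 of them with low Acta1. With the rat as a block the counts were 0 in irradiated vehicle skin, 3 in irradiated RTA-408 skin, all rises, and 0 in unirradiated skin. The 3 calls with vehicle became 20 when baseline replicate 4 was left out, 1 when replicate 2 of the vehicle group was and 0 when its replicate 3 was. With RTA-408 6 passed without baseline replicate 4 and 0 without baseline replicates 1 or 6 or RTA-408 replicates 1 or 3. In unirradiated skin 10 passed without baseline replicate 2, 4 without unirradiated replicate 2, 1 without baseline replicates 1, 5 or 6, and 0 without baseline replicate 3 or unirradiated replicate 1.

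Day 3 gave few calls too. The median differences were 0.19 in irradiated RTA-408 skin, 0.45 in irradiated vehicle skin and -0.02 in unirradiated skin. Acta1 differed by 1.86, 1.92 and 1.74 in the same order, which did not pass, and the muscle marker mean by 1.58, 2.09 and 1.66. These differences are from a baseline mean lowered by baseline replicate 2. Acta1 itself was 19.41 to 19.82 over the 3 arms, below the baseline median of 19.86. With vehicle 7 rose (4.57% of all features) and 1 fell (3.97%). The highest were Ndufa13, an accessory subunit of complex I also known as GRIM-19 (0.97 ± 0.23, limma adjusted p = 0.0048), Ndufa1 (0.96), Ndufa11 (0.93) and Cycs (0.90), and the one that fell was Cox8c. Ndufa13 was 11.90, 11.98 and 12.13 in irradiated vehicle skin and 10.40 to 11.63 at baseline, with no overlap. With RTA-408 1 rose (5.33%), Ndufa1 (0.92 ± 0.29, adjusted p = 0.0353), and 0 fell (4.36%), and in unirradiated skin 0 passed in the limma fit, with 0% of all features and 0 subunits at an unadjusted p under 0.05. Blocking on the rat left 0 calls in irradiated vehicle skin, and so did blocking on the spike-in set. In every irradiated group of every day the set II array had the highest Ndufa1, and in most of them the highest Ndufa11. Baseline holds no set II array. With the set as a block Ndufa1 had a limma adjusted p of 0.122 with vehicle and 0.155 with RTA-408 on day 3. The 8 calls of irradiated vehicle skin became 17 without baseline replicate 4, 3 without baseline replicates 1 or 2 or vehicle replicate 1, 2 without baseline replicate 3 or vehicle replicate 2, and 4 without vehicle replicate 3. The 1 call with RTA-408 became 4 without baseline replicate 4, 2 without RTA-408 replicate 1, and 0 without baseline replicates 1, 2 or 3 or RTA-408 replicates 2 or 3.

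On day 7 the median differences were 0.05, 0.20 and 0.36 in irradiated RTA-408, irradiated vehicle and unirradiated skin. Acta1 differed by 1.63, 1.95 and 1.96 without passing, and the muscle marker mean by 1.08, 1.90 and 2.53. Acta1 itself was 18.88 to 19.88 over these arrays, against a baseline median of 19.86 and a baseline mean lowered by replicate 2. With vehicle 3 rose (7.92% of all features), Ndufa11 (0.91), Ndufa13 (0.66) and Ndufa7 (0.51), and 1 fell (6.06%), Cox8c. With RTA-408 0 rose (9.12%) and 1 fell (6.67%), again Cox8c. Ndufa7 was the 1 that rose in unirradiated skin (0.863%), with 0 falling (1.85%). It was 12.19 and 12.14 there and 11.73, 11.93 and 11.98 in irradiated vehicle skin, against 10.98 to 11.92 at baseline. With the rat as a block 0 passed in irradiated vehicle skin, 1 rose in irradiated RTA-408 skin and 0 passed in unirradiated skin. The 4 calls with vehicle became 8 without baseline replicate 4, 2 without baseline replicates 1 or 6 or vehicle replicate 1, 1 without baseline replicates 2 or 3 or vehicle replicate 2, and 0 without vehicle replicate 3. With RTA-408 the 1 call became 3 without baseline replicates 2 or 4 and 0 without baseline replicates 1 or 6 or RTA-408 replicates 2 or 3. In unirradiated skin it became 3 without baseline replicate 4 and 0 without either unirradiated array.

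On day 14 few subunits differed from baseline. The rises with RTA-408 and the falls with vehicle were in shares near those of all features. The median difference was 0.31 with RTA-408, -0.27 with vehicle and -0.12 in unirradiated skin, and 1 of the 3 vehicle arrays had a median deviation above 0 (0.07). Acta1 differed by 1.86, 0.79 and 0.58 without passing, and the muscle marker mean by 1.61, -0.25 and -0.15, lower than baseline in the vehicle and unirradiated arms. The baseline mean is lowered by its replicate 2, and the baseline median of Acta1 was 19.86. Acta1 was 19.66 to 19.78 with RTA-408, 17.36 to 19.47 with vehicle and 16.95 and 19.92 in unirradiated skin. With RTA-408 3 rose (5.53% of all features) and 1 fell (4.71%), and with vehicle 0 rose (9.47%) and 5 fell (5.96%), while in unirradiated skin 0 passed in the limma fit, again with 0% of all features and 0 subunits at an unadjusted p under 0.05. Ndufa4l2 (2.05 ± 0.59, limma adjusted p = 0.0213), Ndufa1 (1.19 ± 0.29, adjusted p = 0.0056) and Cox7a2l, known to join complexes III and IV into supercomplexes (0.59 ± 0.19, adjusted p = 0.0471), were those higher with RTA-408. Ndufa1 was 10.68, 11.75 and 10.77 with RTA-408, again highest in the set II array. Those lower with vehicle were Ndufv1 (-1.03 ± 0.23, adjusted p = 0.0015), Cox8c (-0.86), Ndufa6 (-0.69), Atp5f1d (-0.68) and Ndufb9 (-0.67). Ndufv1 was 11.56, 11.04 and 10.48 in irradiated vehicle skin of day 14, below all baseline arrays, and 12.04, 11.81 and 11.46 with RTA-408, which overlapped them. Beside these falls all 9 macrophage markers rose and 5 of 7 adipocyte markers and 4 of 7 slow fibre markers fell in irradiated vehicle skin, and their part in the result was not tested. The vehicle count was 0 without irradiated vehicle replicate 3, the array with the most macrophage signal, 12 without replicate 1, 13 without baseline replicate 2, 3 without any other baseline array and 2 without vehicle replicate 2. It was 2 with the rat as a block and 0 with the spike-in set as a block. The RTA-408 count was 11 without baseline replicate 4, 2 without baseline replicate 1 or RTA-408 replicate 1 and 1 without RTA-408 replicate 2.

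Cox8c and Ndufa4l2 were among the subunits that passed on more than 1 day or in more than 1 comparison. Cox8c ran from 7.24 over a median of 7.66 to 8.24 at baseline. It was 6.68, 7.20 and 6.45 with RTA-408 on day 1 and 6.38, 7.05 and 6.78 on day 14, and 6.46, 6.95 and 6.42 with vehicle on day 7, where its difference was -1.11 ± 0.29 (SE, limma adjusted p = 0.0077). All 18 values of the 6 irradiated groups in which it fell lie below every baseline value. Blocking on the rat ended each of those 6 calls, with adjusted p from 0.0617 to 0.198, and blocking on the spike-in set did too, with adjusted p from 0.0741 to 0.897. Cox8c lay above the median negative control on all 46 arrays, but narrowly in RTA-408 replicate 3 of day 1 (6.45 against 6.27). Between irradiated and unirradiated vehicle skin it passed on no day. Ndufa4l2 was 12.42, 12.88 and 11.84 with RTA-408 on day 14, above all baseline arrays (9.40 to 11.23). In irradiated vehicle skin it was 9.71, 9.01 and 8.98 on day 1, 10.60, 9.61 and 7.27 on day 7 and 11.98, 11.21 and 10.15 on day 14. Its call on day 14 was lost without RTA-408 replicate 1 or 2 and with the rat (adjusted p = 0.0853) or the spike-in set (adjusted p = 0.223) as a block.

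**Figure D4:**
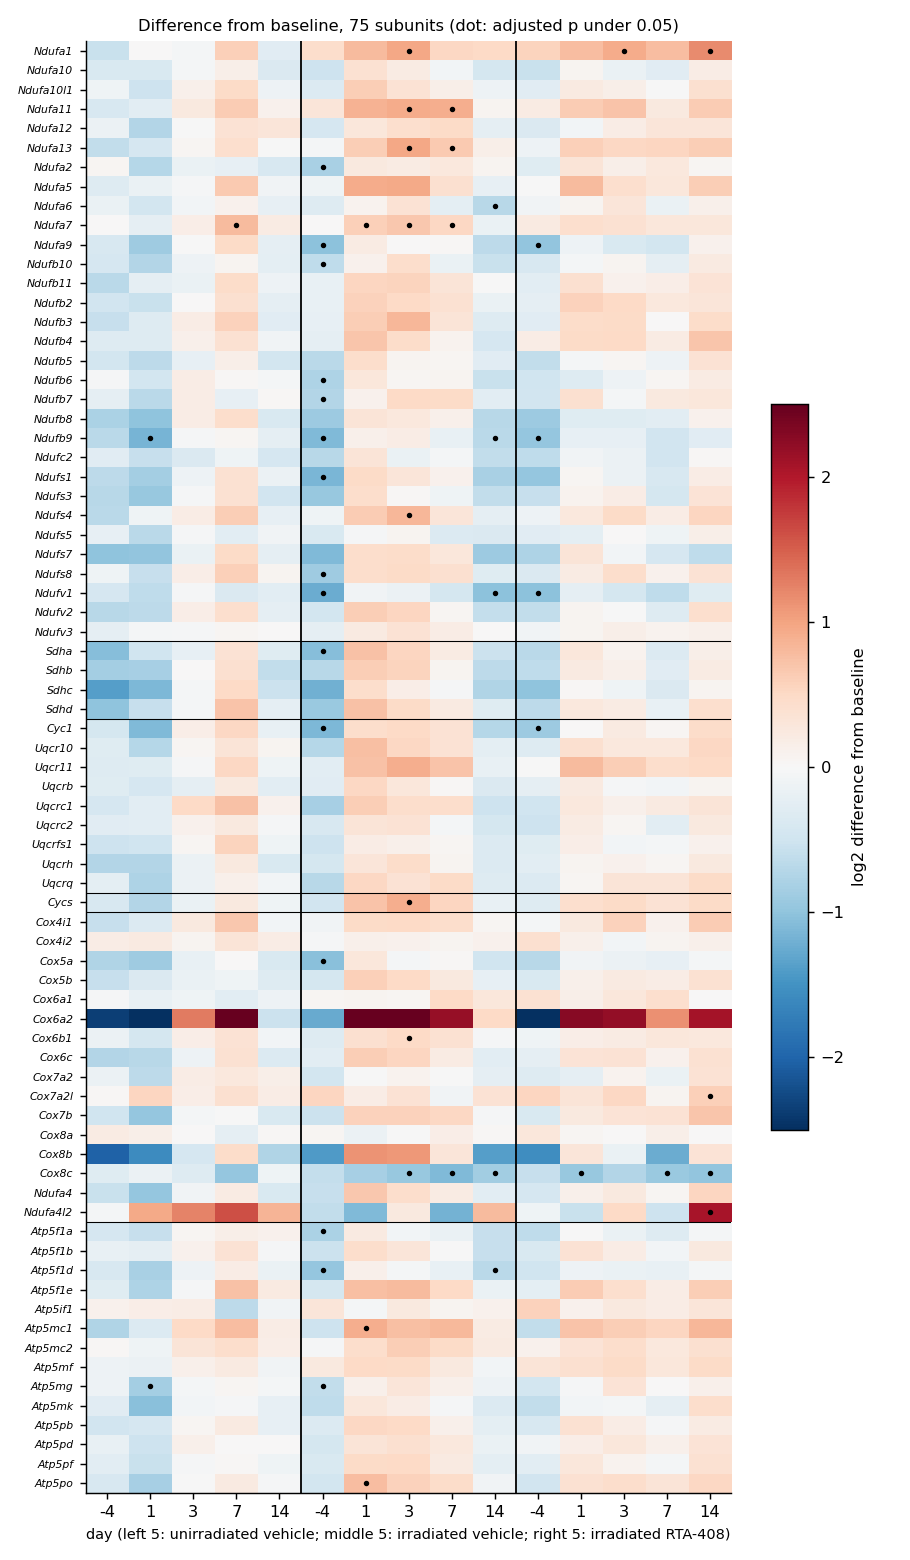
Log2 difference from baseline (colour, limited to 2.5 in either direction) of the 75 subunits (rows, by complex) in 3 arms and 5 days (columns), with a dot where the adjusted p is under 0.05. Irradiated vehicle skin holds 15 dots on day -4, all falls, and 7 rises on day 3, while Cox6a2 has the strongest colours and 0 dots.

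Irradiated vehicle skin was set against unirradiated vehicle skin of the same day, 3 arrays against 2, to give the difference with radiation. On day 1 the subunits were higher in irradiated skin: 17 of 75 rose and 0 fell, against 1.2% and 0.901% of all features. The median difference was 0.98 over the 75 and -0.03 over all features, and it was 1.01 in complex I, 1.37 in complex II, 1.03 in complex III, 0.83 in complex IV and 0.95 in complex V. In 63 of the 75 every irradiated array was above both unirradiated arrays, against 16.5% of all features. Muscle markers moved the same way: Acta1 was 19.79, 19.85 and 19.92 in irradiated skin and 12.15 and 19.58 in unirradiated skin, and its difference of 3.99 had an adjusted p of 0.42 in limma. The mean of the 13 muscle markers was 18.06 to 18.61 against 8.33 and 17.09.

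Atp5po had the lowest adjusted p of these. It was 11.04, 11.38 and 11.68 in irradiated skin and 9.82 and 9.72 in unirradiated skin, with no overlap and a difference of 1.60 ± 0.26 (SE, limma adjusted p = 0.000706). It passed without each of the 5 arrays in turn (highest adjusted p 0.0172) and under all 11 other settings (highest 0.0485). Ndufa4, a subunit of complex IV despite its name, was 15.00, 15.12 and 15.48 against 13.18 and 13.95 (1.63 ± 0.35, adjusted p = 0.0116), while its paralogue Ndufa4l2, at -2.05, missed the threshold (adjusted p = 0.143). Cyc1 (1.55 ± 0.34, adjusted p = 0.0132) and Cox7b (1.55 ± 0.31, adjusted p = 0.0075) were next, and the smallest called rises were Ndufa7 (0.83), Cox6b1 (0.83), Atp5mg (0.98) and Ndufa12 (1.03). Atp5mg was 10.68, 11.01 and 11.17 against 9.97 in both unirradiated arrays. By complex the 17 were 5 of complex I, 1 of complex II (Sdhb, 1.44), 3 of complex III, 4 of complex IV, 3 of complex V and Cycs (1.44 ± 0.37, adjusted p = 0.0318).

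Of the isoform pairs, the muscle isoform Cox6a2 was 15.12, 15.86 and 16.15 in irradiated skin and 4.89 and 13.54 in unirradiated skin. The lower of these lay below the negative controls, so that 1 of the 2 unirradiated arrays measured it and no difference is given. It did not pass, and neither did Cox8b, at least 1.47 higher against the negative controls (limma adjusted p = 0.081). Cox6a1 (0.25) and Cox8a (-0.30) did not pass.

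The count depended on single arrays. Without unirradiated replicate 1, the array with low Acta1, 1 subunit passed, Atp5po, and the median difference was 0.78. That fit leaves 1 unirradiated array, replicate 2, placed on day 1 by its title although its description gives day 3. Without irradiated vehicle replicates 2 and 3 in turn 9 and 3 passed. With Acta1 as a covariate 7 passed and the median was 0.75, with the mean of the muscle markers 2 passed and the median was 0.61, and within spike-in set I 1 passed and the median was 0.95. Of the lists of other mitochondrial genes, 1 of 11 in the tricarboxylic acid cycle rose (Ogdh, 1.08), of 12 carriers 1 rose (the phosphate carrier Slc25a3, 1.03) and 1 fell (the creatine kinase Ckmt1, -2.18), and 1 of 22 mitochondrial ribosomal proteins rose (Mrpl17, 0.85). Of the 9 macrophage markers 2 rose, Cd14 (3.18) and Lyz2 (2.55).

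On the other days the difference with radiation was smaller. The median over the 75 was -0.10 on day -4, 0.35 on day 3, -0.15 on day 7 and -0.12 on day 14, with Acta1 at 0.04, 0.18, -0.01 and 0.21, which did not pass, and the muscle marker mean at 0.27, 0.43, -0.63 and -0.10. On day -4 0 passed (7.42% of all features in either direction) and 8 had an unadjusted p under 0.05, the lowest being Ndufv1 (-0.83 ± 0.30, limma adjusted p = 0.0824) and Ndufa2 (-0.86 ± 0.32, adjusted p = 0.102), neither of which passed. On day 3 0 passed (1.3%) and 10 had an unadjusted p under 0.05, led by Ndufa13 (0.93, adjusted p = 0.111) and Cycs (1.06, adjusted p = 0.152), which did not pass. On day 14 0 passed (6.96%) and 4 had an unadjusted p under 0.05, led by Ndufv1 (-0.78, adjusted p = 0.116) and Ndufa12 (-0.53, adjusted p = 0.174), which did not pass. Without irradiated vehicle replicate 1 the count of day 14 was 2. On day 7 0 rose (2.69%) and 1 fell (1.33%), Ndufa4l2, at 10.60, 9.61 and 7.27 against 11.70 and 12.19 (-2.79 ± 0.77, adjusted p = 0.0325). That call was lost without irradiated vehicle replicate 3 or without either unirradiated array.

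Whether the difference with radiation changed over the 5 days was tested with a moderated F-test, added after the values were seen. It passed for 5 of 75, against 2.16% of all features: Atp5mg (limma adjusted p = 0.0177), Ndufa12 (0.0228), Atp5po (0.028), Cyc1 (0.0288) and Ndufb9 (0.041). Leaving out unirradiated replicate 1 of day 1 gave 0. The count was 1 without either unirradiated array of day -4, 2 without unirradiated replicate 2 of day 7, and 3 and 2 without irradiated vehicle replicates 2 and 3 of day 1. It was 3 without irradiated vehicle replicate 1 of day -4 and 11 without replicate 1 of day 14. The same F-test of the drug difference passed for 0 of 75 (0.0129% of all features, smallest adjusted p of a subunit 0.831), with 14 at an unadjusted p under 0.05.

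**Figure D5:**
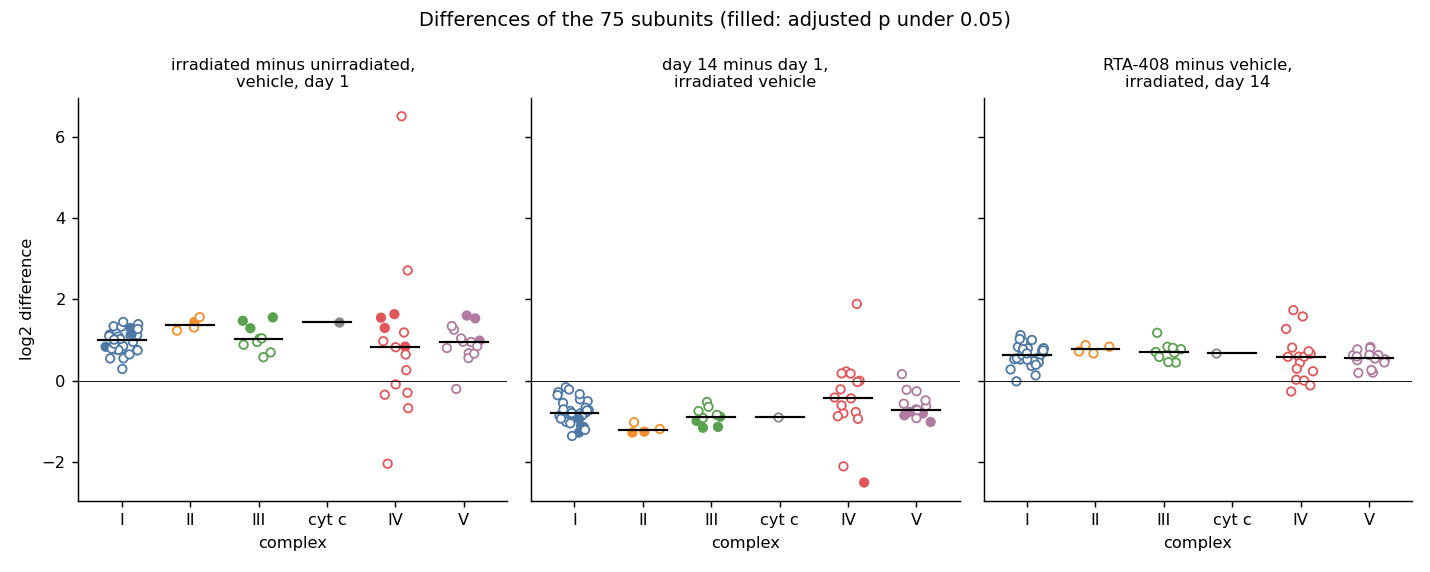
Log2 difference (vertical axis) of the 75 subunits in 3 comparisons (panels), by complex (horizontal axis), each point 1 gene, filled where the adjusted p is under 0.05, bars medians. Filled points number 17, 16 and 0 from left to right. The comparisons share irradiated vehicle arrays.

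Within irradiated vehicle skin the subunits were lower on day 14 than on day 1. Both days are of the same rats (322, 321 and 320), whose arrays the fit takes as independent. Of the 75, 16 fell and 0 rose, against 3.73% and 4.09% of all features, with a median difference of -0.78 for the subunits and -0.01 for all features. For 44 every array of day 14 was below every array of day 1, against 12.1% of all features. Sdhb was 12.20, 11.86 and 12.21 on day 14 and 12.99, 13.27 and 13.84 on day 1 (-1.28 ± 0.31, limma adjusted p = 0.00957). Cox8b was 7.19, 7.94 and 8.30 on day 1 and below the negative controls in all 3 arrays of day 14, a fall of at least 1.67 (adjusted p = 0.0375). Ndufs1 (-1.28), Sdha (-1.26), Cyc1 (-1.16), Uqcrc1, a core protein of complex III (-1.14), and Atp5f1b, the catalytic beta subunit of ATP synthase (-1.02), fell with them. Atp5f1b was 16.32, 16.15 and 15.12 on day 14 and 16.59, 16.80 and 17.26 on day 1. Cox4i1, the common isoform of subunit 4, did not pass (-0.44 ± 0.24). By complex 5 of 31, 2 of 4, 4 of 9, 1 of 16 and 4 of 14 fell, in the order I to V.

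Beside these falls 4 of 11 genes of the tricarboxylic acid cycle fell, led by Sucla2 (-1.48) and Idh3b (-1.36), 4 of 14 of fatty acid oxidation, led by Acadl (-1.15) and Echs1 (-1.11), and of the regulators Ppargc1a (-2.11) and Tfam (-0.82). Acta1 differed by -1.21 (adjusted p = 0.82) and the muscle marker mean by -2.67, and 6 of 9 macrophage markers rose and 3 of 7 adipocyte markers fell. Their part in the result was not tested beyond the covariates: 21 fell with Acta1 in the model and 11 with the muscle marker mean. The count was 0 without day 1 replicate 3, 10 without day 1 replicate 2, 42 without day 14 replicate 1 and 2 without day 14 replicate 3. Blocking on the spike-in set left 1. Day 1 and day 14 share a set through 1 array each, and the estimates were smaller as well for Ndufv1 (-0.51) and Sdhb (-0.99). In irradiated RTA-408 skin 1 rose (1.51% of all features) and 0 fell (2.14%) from day 1 to day 14, with a median of 0.08, Acta1 at -0.10 and the muscle marker mean at -0.38. The 1 was Ndufa4l2 (2.62 ± 0.69, adjusted p = 0.0235), lost without replicate 1 or 3 of day 1 or replicate 1 or 2 of day 14. In unirradiated skin 0 passed (0.00863%) and 12 had an unadjusted p under 0.05, with a median of 0.38, Acta1 at 2.58 and the muscle marker mean at 3.00. Its replicate 2 was rat 318 on day 1 and rat 317 on day 14, and its day 1 arrays are all of set I and its day 14 arrays all of set III. The lowest unadjusted p there belonged to Ndufa12 (1.05, adjusted p = 0.213) and Atp5mg (0.80, adjusted p = 0.271), which did not pass.

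RTA-408 was set against vehicle in irradiated skin on each day, 3 rats against 3, to ask what the drug changed. Drug and radiation comparisons share the irradiated vehicle arrays. In limma 0 of the 75 subunits passed on any of the 5 days, where 0.0474%, 0.0733%, 0.00431%, 0% and 0% of all features passed on days -4, 1, 3, 7 and 14. The median differences were 0.15, -0.22, -0.23, -0.16 and 0.63, and Acta1 differed by -2.27, -0.04, -0.06, -0.32 and 1.07 without passing. The muscle marker mean differed by -1.75, -0.42, -0.51, -0.82 and 1.86, with the sign of Acta1 and, on days 1, 3, 7 and 14, of the subunit median. On days -4 to 7 at most 1 subunit had an unadjusted p under 0.05. The lowest were Atp5f1d and Cox4i2 on day -4, Ndufb6 and Ndufb8 on day 1, Ndufb7 and Cox6b1 on day 3, and Cox8b and Ndufa11 on day 7, and none of them passed.

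Day 14 had the largest median difference of the 5 days, although 0 passed in the limma fit. Of the 75, 71 had a positive difference, 40 of them at an unadjusted p under 0.05, against 5.56% of all features. In 30 all RTA-408 arrays were above all vehicle arrays, against 7.15% of all features. The median deviation from baseline per array overlapped, at 0.37, 0.50 and 0.05 with RTA-408 and 0.07, -0.27 and -0.65 with vehicle. The lowest of these, vehicle replicate 3, is also the array with the most macrophage signal (15.99). The medians of complexes I to V were 0.64, 0.77, 0.70, 0.58 and 0.57. Cyc1 was 12.19, 11.88 and 11.40 with RTA-408 and 10.92, 10.65 and 10.39 with vehicle, with no overlap (1.17 ± 0.31, limma adjusted p = 0.183). Ndufb4, an accessory subunit of complex I, was 11.02, 11.34 and 11.04 against 10.16, 10.26 and 9.64 (1.12 ± 0.31, adjusted p = 0.193). In the panel of 1 subunit per complex the differences were 0.74 for Ndufv1, 0.67 for Sdha, 0.83 for Uqcrc1, 0.67 for Cycs, 0.59 for Cox4i1 and 0.82 for Atp5f1b, with adjusted p from 0.255 to 0.483. Cox6a1 (-0.27) and Cox8a (0.00), which are isoforms of other tissues, lay below these values, and no test of that gap was run. Cox4i1, also a common isoform, did not lie below them (0.59).

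Muscle, adipocyte and macrophage markers moved on day 14 too, without passing. The mean of the muscle markers was between 17.21 and 17.71 in the RTA-408 arrays and between 13.08 and 17.05 in the vehicle arrays, and the median difference was 1.19 for the 7 adipocyte markers and -1.38 for the 9 macrophage markers. With Acta1 or the muscle marker mean as a covariate the median of the subunits was 0.56 or 0.50, and within spike-in set III it was 0.72, all with 0 calls. Leaving out vehicle replicate 1 gave 14 calls, all higher with RTA-408, and leaving out any other of the 6 arrays gave 0. The median differences of other lists were 0.54 for the tricarboxylic acid cycle, 0.60 for carriers and porins, 0.44 for fatty acid oxidation, 0.35 for both lists of assembly factors, 0.31 for mitochondrial ribosomal proteins and 0.10 for regulators of biogenesis, with 0 members passing in each. The drug difference on day 14 minus that on day 1 was 0.87 in the median, and 0 of 75 passed (0.00863% of all features). At an unadjusted p under 0.05, 39 were higher, against 3.65% of all features, with Cyc1 first (1.61 ± 0.43, adjusted p = 0.3) and Ndufb6 (1.36 ± 0.37, adjusted p = 0.338). Without vehicle replicate 1 of day 14 the count was 1. The difference is built from the same vehicle arrays as the fall within irradiated vehicle skin.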

How the data were processed

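Values are the log2 signals that the authors deposited, 1 per feature and array, per the labels from Clariom S arrays hybridised with biotin-labelled cDNA made from 100 ng of RNA. Their normalization method is not stated in the labels, and the values were used them unchanged. Of 24834 features, 1646 controls were left out. Annotation gave 15049 features 1 symbol and 8139 none. Replicates are separate rats, biopsied repeatedly, and the number of arrays limits precision. Unirradiated replicate 2 of day 1 was placed by its title, although its description gives day 3.

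Limma 3.58.1 in R 4.3.3 fitted 1 mean per group to all 46 arrays (30 residual degrees of freedom), with Benjamini-Hochberg adjustment over 23188 features per comparison and a threshold of 0.05. SE is that of the model. Slopes added Acta1 as a term. The code was tested on simulated data. A group below the negative controls has the median of the 1153 negative control features as its floor. Spike-in sets were found from 2 spike-in features, at their widest gaps, after the values were seen. In the replicate check, samples with the same number had deviations correlated from -0.38 to 0.25, so numbers do not pair samples across arms, although RTA-408 replicates 1 and 2 share rats with baseline replicates 1 and 2. Rats pair baseline with later days (deviations correlated from -0.48 to 0.35), and the rat block is given where it moves a count. Alternatives were quantile normalization, a filter on dim features, array weights, blocks, covariates, the compared groups alone and leaving out each array.

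Named genes were a panel of 1 subunit per complex, isoform pairs, called members with the 4 highest and lowest differences (or the 2 smallest p), the extreme slopes, complex II, and up to 2 genes per pathway list. Members named beyond these were chosen after their values were seen. Members and lists were chosen with earlier results of these data known. No tested feature carried the symbol Cox6b2 or Cox7a1 in the array annotation, so neither was analysed here.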

Additional observations from a re-analysis of the deposited data

Results flagged for a closer look

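At baseline, 3 of the 75 subunits and Acta1 had an array far from the other 5, by Dixon's test at its 95% critical value of 0.625 for 6 samples. Chance flags about 1 in 20 groups. Acta1 was 7.87 in replicate 2, and the gap to the next array was 0.987 of the whole range. Cox6a2 was 4.50 in the same array (0.804 of the range), and Ndufb8, an accessory subunit of complex I, was 10.69 there against 12.32 to 13.22 in the others (0.646). Ndufs5 was lowest in replicate 6, at 11.20 against 11.56 to 11.77 (0.634), where Acta1 was 19.92.

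The difference with radiation changed over the 5 days, by the limma F-test, in Atp5mg (adjusted p = 0.0177), Ndufa12 (0.0228), Atp5po (0.028), Cyc1 (0.0288) and Ndufb9 (0.041). Each of the 5 had its highest difference on day 1 (0.98, 1.03, 1.60, 1.55 and 1.29). Unirradiated replicate 1 of that day had little muscle, and without it 0 passed. The slope on Acta1 passed for Cyc1 (0.09) and not for Atp5mg (0.01), Ndufa12 (0.04), Atp5po (0.03) and Ndufb9 (0.06). The part of muscle in these changes was not tested.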

How the results depend on the processing

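Single-gene reruns covered 84 called differences and 5 called slopes, and 0 of these changed sign. Leaving out 1 array, 265 of 630 reruns of the differences and 12 of 230 of the slopes lost their call, and under other settings 308 of 949 and 13 of 55 did. The 4 uncalled slopes that were rerun changed sign in 5 of 227 reruns, all of Ndufa4l2 or Cox8a, and differences that were not called were not rerun gene by gene. Counts of called subunits moved by more than 1.5 times as follows, and the cause was not tested.

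Against baseline on day -4, the 4 calls of irradiated RTA-408 skin became 2 with only the groups compared, 0 with the rat as a fixed block, 1 with the replicate block and 0 within spike-in set I. The 15 of irradiated vehicle skin became 27 with Acta1 and 25 with the muscle mean as a covariate, 28 without low-Acta1 arrays, 6 with only the groups compared, 6 with the rat block, 4 with the replicate block and 3 within set I. The 0 of unirradiated skin became 2 with Acta1 and 3 without low-Acta1 arrays.

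On day 1, the 1 call with RTA-408 became 8 with array weights, 1 of the other direction with the spike-in set as a block, 3 with the rat block, 5 with the replicate block and 0 within set I. The 3 with vehicle became 14 with array weights, 21 with the replicate block, and 0 with only the groups compared, with the rat block or within set I. The 2 of unirradiated skin became 1 with either covariate and 0 with only the groups compared, with the rat block, with the replicate block, within set I or without low-Acta1 arrays.

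On day 3, the 1 with RTA-408 became 4 with array weights, 5 with the replicate block, and 0 with Acta1, with the set block, after quantile normalization or without low-Acta1 arrays. The 8 with vehicle became 14 with array weights, 20 with the replicate block, 4 with either covariate, 3 without low-Acta1 arrays and 0 with the set or rat block.

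On day 7, the 1 with RTA-408 became 3 with Acta1, with array weights or without low-Acta1 arrays, 5 with the muscle mean, 2 with only the groups compared, after quantile normalization or without the dimmest features, 0 with the set block and 1, a rise, with the rat or replicate block. The 4 with vehicle became 7 with array weights, 11 with the replicate block, 2 with only the groups compared or after quantile normalization, 1 with Acta1 or without low-Acta1 arrays and 0 with the set or rat block. The 1 of unirradiated skin became 2 with array weights, 3 with the replicate block and 0 with the set block, the rat block or only the groups compared.

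On day 14, the 4 with RTA-408 became 8 with array weights, 7 with the replicate block and 1 with the set block. The 5 with vehicle became 15 with Acta1, 13 with the muscle mean, 14 without low-Acta1 arrays, 1 with only the groups compared or the replicate block, 2 with the rat block and 0 with the set block.

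The radiation count of 0 on day -4 became 1 with Acta1, 4 with array weights, 1 with the set block and 2 with the muscle mean. The 17 of day 1 became 7 with Acta1, 26 with array weights, 2 with the muscle mean, and 1 with only the groups compared, within set I or without low-Acta1 arrays. The 0 of days 3 and 14 became 1 each with the set block, and the 1 of day 7 became 2 with the muscle mean and 0 with only the groups compared or within set III. The 5 of the radiation F-test became 9 with array weights, 10 with the set block, 3 with the muscle mean, and 0 with only the groups compared, with the rat block or without low-Acta1 arrays. From day 1 to day 14 the 1 with RTA-408 became 0 with the set block, and the 16 with vehicle became 1 with the set block, 0 with only the groups compared and 26 without low-Acta1 arrays. The 22 slopes became 1 in baseline arrays alone, 35 with the set block, 10 with the replicate block, 45 on the muscle mean, 7 within set I and 1 within set III.

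Leaving out 1 array at a time gave 0 to 11 for the radiation F-test, 0 to 14 for the drug on day 14, 0 to 1 for its day 14 minus day 1 difference, 0 to 1 and 0 to 42 for day 14 against day 1 with RTA-408 and vehicle, and 5 to 26 for the slopes. Against baseline on days -4, 1, 3, 7 and 14 it gave 0 to 9, 0 to 6, 0 to 4, 0 to 3 and 1 to 11 with RTA-408, and 5 to 27, 0 to 20, 2 to 17, 0 to 8 and 0 to 13 with vehicle. Unirradiated skin gave 0 to 10 on day 1 and 0 to 3 on day 7. The radiation count ran from 1 to 19 on day 1, 0 to 1 on day 7 and 0 to 2 on day 14.

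Replicate numbers follow the rat within an irradiated arm, and replicates 1 and 2 of RTA-408 skin are the rats of baseline replicates 1 and 2. They pair no rats across arms or in the other comparisons with baseline, where the rat block uses the labelled rats. Groups of 2 or 3 arrays, an Acta1 signal near its ceiling and an unstated normalization limit every comparison. Cox8b and Cox4i2 lay at or below the negative controls on 20 and 46 arrays.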
